A study of Mus musculus with 8 samples.

Results

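Sp7, Mcpt8, Alox5 and Laptm5, genes known from bone and blood cells, were followed across 8 arrays of cultured mouse primary myoblasts. They are 4 of the 19938 genes that a probe set with 1 gene symbol represents, and each has 1 probe set. They were chosen from readings on these same arrays, because each read lower on the arrays numbered 2 and 3 than on those numbered 1 and 4 under both genotype labels. That pattern is therefore described here and not tested. The series compared 4 arrays labelled WT with 4 labelled Runx1f/f, a genotype that the labels also call KO. All animals were C57bl/6 and 2 to 3 weeks old. Their satellite cells came from the gastrocnemius muscle and were kept on Matrigel in a proliferation medium. The labels call the arrays biological replicates and name no animal or culture, and they give neither a driver of Cre recombinase nor the removed part of Runx1.

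Runx factors bind DNA as partners of Cbfb and direct different lineages: Runx1 acts in blood formation, Runx2 in bone and Runx3 in T cells and sensory neurons. Sp7, also called osterix, is a zinc finger transcription factor required for osteoblasts and acts downstream of Runx2. Mcpt8 is a serine protease stored in basophil granules. Alox5 is the lipoxygenase that opens leukotriene synthesis from arachidonic acid, and Laptm5 is a lysosomal membrane protein of blood cells. None of them is a component of the contractile apparatus.

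Values are log2 intensities after RMA, so a difference of 1 is 2-fold. Array medians ran from 4.39 to 4.41. In all 35399 deposited probe sets, 3 means coincided to within 7.5e-05: that over the 4 WT arrays, that over Runx1f/f 1 with 2 and that over Runx1f/f 3 with 4. Runx1f/f 1 and 2 are therefore mirror images around that mean, as are 3 and 4, and the 8 readings of a gene are not independent. Whether each column of values belongs to the sample its header names could not be checked here, so WT and Runx1f/f below mean the labels attached to the columns. Limma called 0 of 19938 genes higher (0%) and 0 lower (0%) in Runx1f/f arrays at an adjusted p under 0.05. Before adjustment, 0 reached a p under 0.05. The equal means fix that count, so it does not measure the effect of the genotype. Runx1, the targeted gene, read 9.15, 9.99, 10.27 and 9.25 on WT arrays 1 to 4 and 9.35, 9.98, 9.89 and 9.44 on Runx1f/f arrays 1 to 4. It read higher on all arrays numbered 2 and 3 than on those numbered 1 and 4, the opposite of the 4 genes described here. The equal means keep every gene from separating the labels, so the overlap of Runx1 between them does not measure the effect of the genotype either.

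Sp7 showed the widest spread of the 4 genes. WT arrays 1 to 4 read 7.76, 3.86, 3.34 and 7.33, and Runx1f/f arrays 1 to 4 read 6.28, 4.86, 5.01 and 6.14. The arrays numbered 1 and 4 were the 4 highest and those numbered 2 and 3 the 4 lowest, with no overlap. The highest array read 4.42 above the lowest. Detection was not assessed on these arrays, and the readings of 3.34 and 3.86 lie among those of list genes that stayed low on every array, so no fold is given against them. The step between the arrays numbered 2 and 3 and the others was 1.13. Steps nearly as large lay within each set, 1.00 from WT 2 to Runx1f/f 2 and 1.05 from Runx1f/f 1 to WT 4. WT arrays held the extremes at both ends: the label means were 5.57 ± 2.29 (SD, n = 4) in WT and 5.57 ± 0.74 (SD, n = 4) in Runx1f/f.

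Mcpt8 read 7.97, 6.05, 3.91 and 8.18 on WT arrays 1 to 4 and 7.40, 5.65, 5.59 and 7.47 on Runx1f/f arrays 1 to 4. The arrays numbered 2 and 3 again lay below the others without overlap, by a gap of 1.35. The largest step was elsewhere: WT 3 stood 1.68 below the next array, Runx1f/f 3. Its range of 4.27 rested on that array and was 2.59 without WT 3. The reading of 3.91 also lies among those of genes that stayed low, so no fold is given against it. The label means were 6.53 ± 1.99 (SD, n = 4) in WT and 6.53 ± 1.05 (SD, n = 4) in Runx1f/f.

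Alox5 read 10.03, 8.32, 6.59 and 10.04 on WT arrays 1 to 4 and 9.60, 7.89, 7.68 and 9.81 on Runx1f/f arrays 1 to 4. The 4 arrays numbered 1 and 4 lay close together, within 9.60 to 10.04, whereas those numbered 2 and 3 were spread from 6.59 to 8.32. The gap between the sets, 1.28, was the largest step in the order. The range was 3.45, or 10.9-fold. The label means were 8.75 ± 1.65 (SD, n = 4) in WT and 8.75 ± 1.12 (SD, n = 4) in Runx1f/f.

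Laptm5 had the narrowest spread. WT arrays 1 to 4 read 7.61, 7.21, 7.14 and 8.17, and Runx1f/f arrays 1 to 4 read 7.80, 7.27, 6.93 and 8.14. The sets did not overlap, but the gap was 0.34, no wider than the step of 0.34 from Runx1f/f 1 to Runx1f/f 4, and it was 0.53 without WT 1. WT 4 and Runx1f/f 4 stood above the other 6 arrays. The range of 1.24, or 2.36-fold, ranked 465 among all genes. The label means were 7.53 ± 0.47 (SD, n = 4) in WT and 7.53 ± 0.54 (SD, n = 4) in Runx1f/f. Limma gave an adjusted p of 1 for the label difference of each of the 4 genes, a value that the equal label means fix in advance.

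**Figure D1:**
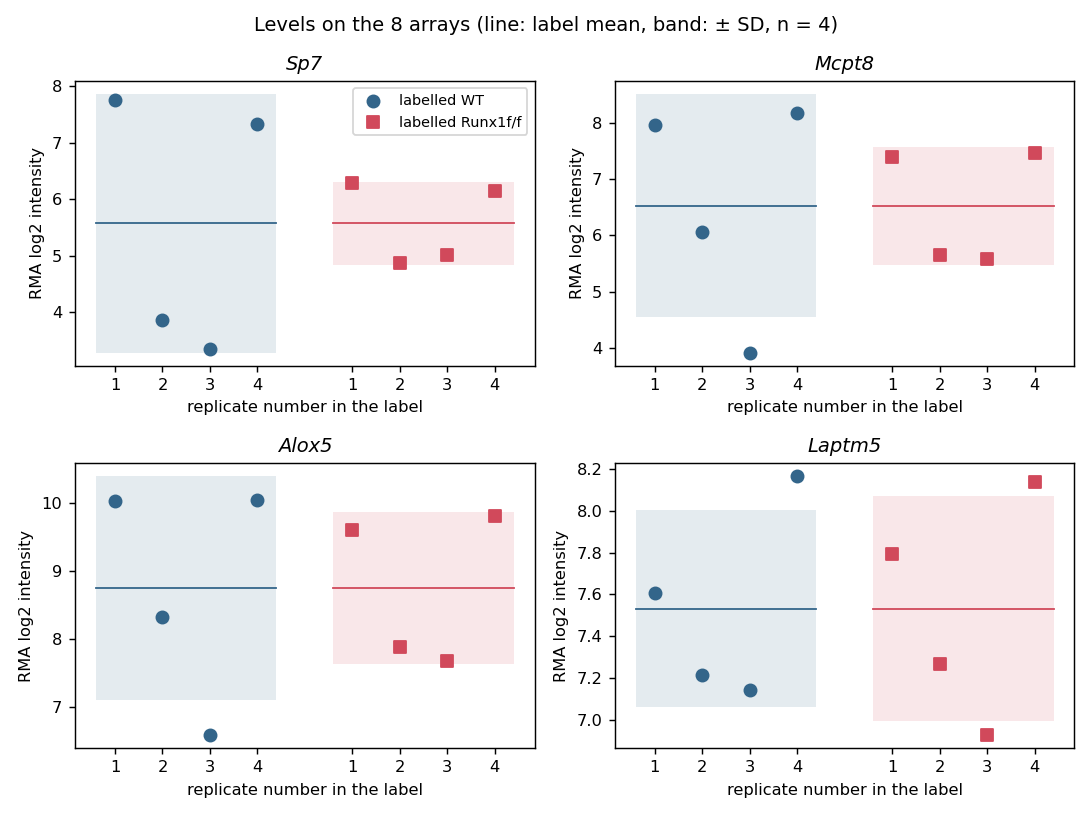
Each panel plots 1 gene's RMA log2 intensity on the 4 WT arrays (circles) and the 4 Runx1f/f arrays (squares) by replicate number, with the label mean as a line and ± SD (n = 4) as a band, on a separate vertical scale per gene. Numbers 2 and 3 lie below numbers 1 and 4 in every panel, by gaps of 1.13 (Sp7), 1.35 (Mcpt8), 1.28 (Alox5) and 0.34 (Laptm5), while the label means coincide.

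This order of arrays is the one by which the 4 genes were chosen, and 4 of 4 showed it. Over all 19938 genes, 10.5% had all arrays numbered 2 and 3 below all numbered 1 and 4, and 9.87% had them all above, so many genes share the order. Those shares are the background for each list count that follows. The range exceeded 1 in 4 of 4 and in 3.78% of all genes, whose median range was 0.25. It comes from the same readings that chose the genes, and a gap over 1, as in Sp7, Mcpt8 and Alox5, forces a range over 1. The range is therefore a description only.

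In Sp7, WT 1 read 3.90 above WT 2 and WT 4 read 3.99 above WT 3. The same differences, 1 over 2 and 4 over 3, were 1.42 and 1.13 between Runx1f/f arrays. Mcpt8 differed by 1.92 and 4.27 between WT arrays and by 1.75 and 1.88 between Runx1f/f arrays. Alox5 differed by 1.71 and 3.45, and by 1.72 and 2.13. For Laptm5 the differences were 0.40 and 1.03 between WT arrays, and 0.53 and 1.21 between Runx1f/f arrays. Laptm5 was the gene of the 4 whose Runx1f/f arrays spread at least as widely as its WT arrays. A difference between labels in this spread was not tested.

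The labels also carry source numbers, which form 3 runs (139 to 142, then 160 and 161, then 181 with 189). What they stand for is not stated. The first run holds the arrays numbered 1 and 2 of both labels, the second those numbered 3 and the third those numbered 4. Within the first run the lower of the 2 arrays numbered 1 exceeded the higher of the 2 numbered 2 by 1.42 in Sp7, 1.35 in Mcpt8, 1.28 in Alox5 and 0.34 in Laptm5. The genes were chosen by this order, so these gaps could only be positive and are no separate result. Arrays numbered 3 and 4 cannot be compared within a run. Runx1f/f minus WT differences in the 3 runs were -0.24, 1.67 and -1.19 for Sp7 and -0.48, 1.68 and -0.71 for Mcpt8. They were -0.43, 1.09 and -0.22 for Alox5 and 0.12, -0.21 and -0.03 for Laptm5. Weighted by their arrays these values must cancel, because the label means are equal, so a mix of signs is fixed in advance.

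Promoter sequences were examined because the series title joins Runx1 with MyoD and c-Jun. RefSeq promoters (GRCm38.p6) matched 3 of the 4 genes, Mcpt8, Alox5 and Laptm5, and the 250 bases before the start are given 5′ to 3′ along the gene. Motifs searched on both strands were the Runx sites TGTGGT and TGCGGT, the E-box CAGCTG bound by MyoD, and the AP-1 site TGANTCA bound by c-Jun with Fos proteins. Matches are in capitals. Mcpt8 lies on the minus strand at chr14:56085198-56085447, Alox5 on the minus strand at chr6:116461179-116461428, and Laptm5 on the plus strand at chr4:130913066-130913315.
Mcpt8: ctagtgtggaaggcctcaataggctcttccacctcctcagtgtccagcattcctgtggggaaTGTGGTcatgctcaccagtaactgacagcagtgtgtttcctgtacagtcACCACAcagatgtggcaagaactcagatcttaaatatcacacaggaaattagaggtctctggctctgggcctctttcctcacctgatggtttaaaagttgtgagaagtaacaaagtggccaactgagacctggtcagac
Alox5: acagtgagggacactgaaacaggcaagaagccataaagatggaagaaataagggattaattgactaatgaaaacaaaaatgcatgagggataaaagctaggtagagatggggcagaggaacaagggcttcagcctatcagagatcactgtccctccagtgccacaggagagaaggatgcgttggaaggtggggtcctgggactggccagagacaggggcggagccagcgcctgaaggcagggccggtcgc
Laptm5: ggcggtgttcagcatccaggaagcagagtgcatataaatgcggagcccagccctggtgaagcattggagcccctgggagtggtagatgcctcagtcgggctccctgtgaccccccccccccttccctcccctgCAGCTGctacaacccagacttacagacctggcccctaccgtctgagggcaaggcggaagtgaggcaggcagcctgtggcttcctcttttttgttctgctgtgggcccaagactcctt
The Mcpt8 window held 2 matches to TGTGGT, 1 on the gene's strand beginning 188 bases before the start and 1 on the opposite strand, written ACCACA, beginning 139 bases before it. Of 32851 promoter windows of this length, 14% held TGTGGT. The Laptm5 window held 1 CAGCTG, beginning 117 bases before the start, as did 13% of windows. The Alox5 window held 0 of the 4 motifs, and TGCGGT and TGANTCA, present in 5.1% and 6.75% of windows, were in none of the 3. The motifs searched do not overlap one another, and a match is a description of letters only.

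Of 20 measured osteoblast genes, 4 had the arrays numbered 2 and 3 below the others, Sp7 included, and 2 had them above, where the shares over all genes were 10.5% and 9.87%. The 4 include Msx2, by 0.10, and the 2 include Smpd3, by 0.008, both of which read low on every array. The count below was 5 after centring, with Mepe added, and 5 after repeated quantile normalization, with Alpl added instead. Mepe and Alpl also read low on every array. The median range of the list was 0.29, against 0.25 over all genes, and 5 of 20 exceeded a range of 1, against 3.78% of all genes. The 5 include Sp7, whose gap forces its range over 1, and without it the count was 4 of 19. Limma called 0 of 20 higher and 0 lower in Runx1f/f arrays, as in every list below, counts that the equal label means fix in advance. Tnfsf11, the osteoclast differentiation factor RANKL, read 6.00, 5.31, 5.28 and 6.39 on WT arrays and 6.05, 5.43, 5.48 and 6.01 on Runx1f/f arrays, with a gap of 0.52. Dlx3, a homeobox factor of bone and skin, showed the same order with a gap of 0.37. This gene lies outside the naming rule and was added after its values were seen.

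Dmp1, a matrix protein of osteocytes, ran the other way. It read 5.05, 5.69, 5.93 and 4.93 on WT arrays and 5.16, 5.64, 6.60 and 4.20 on Runx1f/f arrays, so that numbers 2 and 3 were all higher, by at least 0.49. Col1a2, a chain of type I collagen, spread from 9.13 on WT 2 to 10.39 on WT 1, and its arrays overlapped. The osteoblast genes Dlx5, Dlx6, Msx2, Alpl, Ibsp, Phex, Mepe, Pth1r, Ifitm5, Smpd3 and Omd, 11 in all, read between 3.37 and 3.99 on every array. Runx2, Bglap, Bglap2 and Spp1 were not analysed here.

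The other Sp factors had narrow ranges. Among the 7 other measured members of this zinc finger family the widest range was 0.37, in Sp4. Sp4, Sp5, Sp6, Sp8 and Sp9 read between 3.17 and 4.05 on every array, the level of list genes that stayed low. A narrow range at that level says little, and only Sp1 and Sp3 read higher, Sp3 from 8.09 to 8.32. Sp1, which is also the next gene beside Sp7 on chromosome 15, read 6.42, 6.50, 6.24 and 6.42 on WT arrays and 6.45, 6.34, 6.31 and 6.48 on Runx1f/f arrays, and the sets overlapped. Sp5 was the 1 further member with numbers 2 and 3 below, by 0.01 only, and it overlapped after repeated quantile normalization.

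Mcpt8 was the only gene of the 17 measured mast cell and basophil genes whose range exceeded 1. In this list 2 of 17 had the arrays numbered 2 and 3 below the others, Mcpt8 and the interleukin receptor chain Il3ra, whose gap was 0.08. Another 2, Tpsab1 and Ms4a2, had them above by 0.12 and 0.01, and Ms4a2 overlapped after centring the arrays on their medians. The transcription factor Gata2 read 6.89, 6.81, 7.13 and 7.53 on WT arrays and 7.25, 6.93, 7.05 and 7.13 on Runx1f/f arrays, with overlap. The other 14 genes, including the mast cell proteases Mcpt1, Mcpt2, Mcpt4, Cma1, Tpsb2 and Cpa3, the receptor chains Kit, Fcer1a and Ms4a2 and the basophil protease Prss34, read between 3.37 and 4.18 on every array. None of these 14 was lower on numbers 2 and 3 as Mcpt8 was. In bulk RNA, fewer cells of a type and less RNA per cell cannot be told apart.

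Mcpt8 lies in a cluster of granule protease genes on chromosome 14. Its neighbours Mcpt4 and Mcpt2 on one side, with ranges of 0.31 and 0.08, and Ctsg on the other, with 0.15, overlapped between the sets. Gzme, the next measured gene after Ctsg and a granzyme, read 6.55, 5.01, 4.37 and 6.20 on WT arrays and 5.84, 5.22, 4.73 and 6.34 on Runx1f/f arrays, with numbers 2 and 3 lower by a gap of 0.62. The adjoining granzyme Gzmd read 5.04, 4.50, 4.29 and 5.51 on WT arrays and 5.28, 4.39, 4.20 and 5.47 on Runx1f/f arrays, with a gap of 0.54. Gzmd and Gzme belong to a family of closely similar genes whose probes can share transcripts, so the readings of each are uncertain. The list of 15 measured granule genes held proteases, the peroxidase Mpo and the proteoglycan Srgn. Of these 15, 3 had numbers 2 and 3 below, Gzmd, Gzme and Gzmg, the last by 0.03, and Srgn had them above by 0.16. The 12 genes other than Gzmd, Gzme and Srgn read between 3.26 and 4.29.

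**Figure D2:**
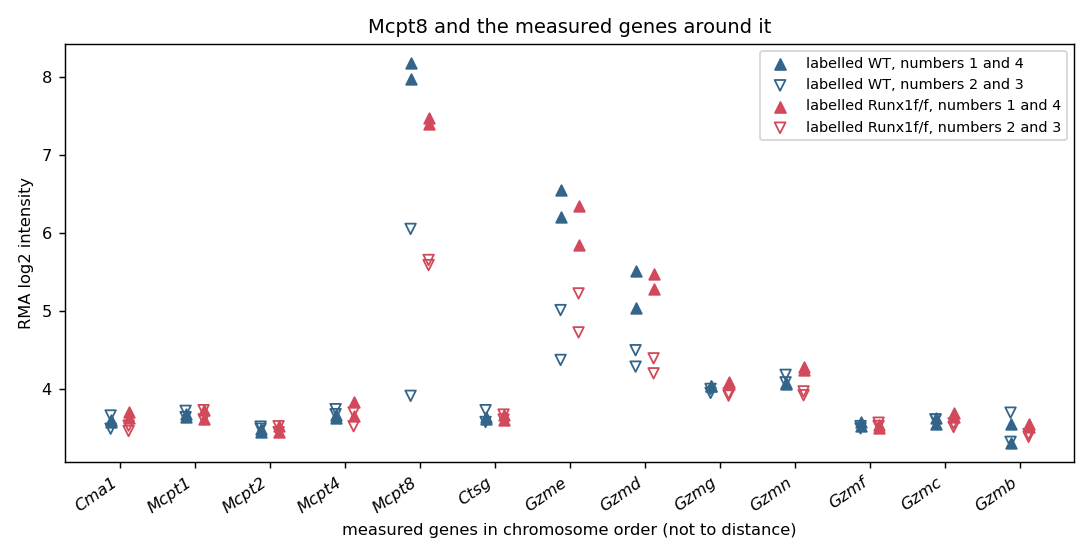
RMA log2 intensity of Mcpt8 and 12 measured genes around it, in chromosome order and not to distance, on each array (blue for the WT label, red for the Runx1f/f label, filled upward triangles for numbers 1 and 4, open downward triangles for numbers 2 and 3). Mcpt8, Gzme and Gzmd are spread by 4.27, 2.18 and 1.31, while Ctsg, which lies between Mcpt8 and Gzme, is spread by 0.15.

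Among the nearest neighbours of the other 3 genes, only Sdc3 had a range over 1. Of the 16 nearest measured genes, 2 on each side of each of the 4 genes, 4 had numbers 2 and 3 below and 1 had them above, against 10.5% and 9.87% of all genes. The 4 were Aaas beside Sp7, Gzme beside Mcpt8, and Zfand4 and Marchf8 beside Alox5, with gaps of 0.12, 0.62, 0.31 and 0.13. Sdc3 is a syndecan beside Laptm5. It read 8.71, 6.86, 7.09 and 8.42 on WT arrays but 7.82, 7.72, 7.78 and 7.76 on Runx1f/f arrays, so its range of 1.85 came from WT arrays alone. Its sets overlapped by 0.01 in the deposited scaling and no longer overlapped after centring or repeated quantile normalization. Matn1 and Ptpru, on the other side of Laptm5, had ranges of 0.22 and 0.18, but both read low on every array, between 3.09 and 3.51. In gene order, 4 genes not measured here lie between Sdc3 and Laptm5, and 12 lie between Laptm5 and Ptpru.

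Alox5 was the widest-ranging of 17 measured leukotriene and lipoxygenase genes. Of the 17, 4 had numbers 2 and 3 below and 1 had them above, where the shares over all genes were 10.5% and 9.87%. The 4 include Alox5, which was chosen by this order, and without it the count below was 3 of 16. They also include Ggt5, which read low on every array, from 3.14 to 3.34, with a gap of 0.08. The 1 above, Alox12, overlapped after centring. Ltc4s, which joins glutathione to leukotriene A4, had numbers 2 and 3 below 1 and 4, as Alox5 did. Its lowest array was Runx1f/f 3 and not WT 3, and its readings on numbers 2 and 3 lie among those of genes that stayed low. It read 4.08, 3.90, 3.67 and 4.57 on WT arrays and 4.41, 3.71, 3.37 and 4.75 on Runx1f/f arrays, with a gap of 0.18. Lta4h, the hydrolase that makes leukotriene B4, read from 7.38 to 7.76 with a gap of 0.05. Alox5ap, the membrane protein that presents arachidonic acid to the enzyme, read from 3.74 to 3.99, and its arrays overlapped. Lta4h and Alox5ap are outside the naming rule and are given to complete the pathway.

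Genes of arachidonic acid release and prostaglandin synthesis differed from Alox5. Pla2g4a, the phospholipase that frees arachidonic acid, read 7.89, 6.76, 7.00 and 7.18 on WT arrays and 6.55, 7.86, 7.63 and 6.78 on Runx1f/f arrays. Ptgs2, cyclooxygenase 2, read 7.92, 6.24, 6.47 and 7.46 on WT arrays and 6.73, 7.31, 7.45 and 6.59 on Runx1f/f arrays. In both genes numbers 1 and 4 were higher than 2 and 3 among WT arrays and lower among Runx1f/f arrays. The 6 other measured lipoxygenases, Alox8, Alox12, Alox12b, Alox12e, Alox15 and Aloxe3, read between 3.28 and 3.81.

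**Figure D3:**
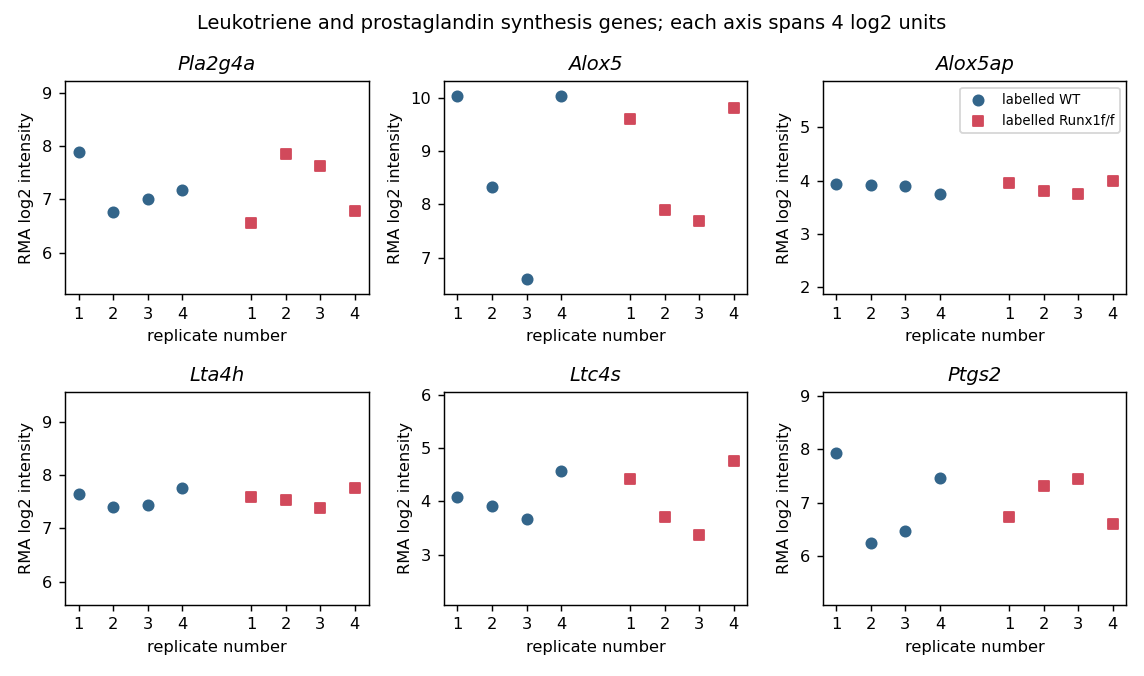
RMA log2 intensity of 6 genes of leukotriene and prostaglandin synthesis by label and replicate number (circles WT, squares Runx1f/f), each vertical axis covering the same span on the log2 scale. Alox5 spans 3.45 and Ltc4s 1.38 with numbers 2 and 3 lower under both labels, Alox5ap spans 0.25, and Pla2g4a and Ptgs2 order the numbers oppositely under the 2 labels.

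Laptm5 was the 1 leukocyte or macrophage gene listed whose range exceeded 1. The list of 24 such genes had 1 member with numbers 2 and 3 below, Laptm5, and 2 with them above, Itgam and Csf1r, by 0.08 and 0.05. After centring or repeated quantile normalization 3 were below, the others being the leukocyte phosphatase Ptprc and the macrophage marker Adgre1. Those genes, with Csf1r, lie outside the naming rule and were added after their values were seen. The 23 genes other than Laptm5, among them Ptprc, Spi1, Tyrobp, Csf1r and C1qa, read between 3.21 and 4.78 on every array. The highest of them was Cd68, from 4.32 on WT 1 to 4.78 on WT 2, and Cd52, Itgam and Cd68 overlapped or ran against Laptm5. The list median without Laptm5 ran from 3.47 to 3.58 on WT arrays and from 3.51 to 3.52 on Runx1f/f arrays. The 14 measured megakaryocyte and blood progenitor genes included 1 below, Meis1 by 0.06, and 1 above, Cd34 by 0.05, and 0 had a range over 1.

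The related lysosomal genes Laptm4a and Laptm4b were nearly level. Laptm4a read from 11.21 to 11.41 and Laptm4b from 8.63 to 8.83, and the sets overlapped in both. Cbfb, the Runx partner, read from 8.91 to 9.17, a range of 0.27 with overlap. Runx3 also ranged by 0.27 with overlap, but it read only 3.30 to 3.56, the level of list genes that stayed low.

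**Figure D4:**
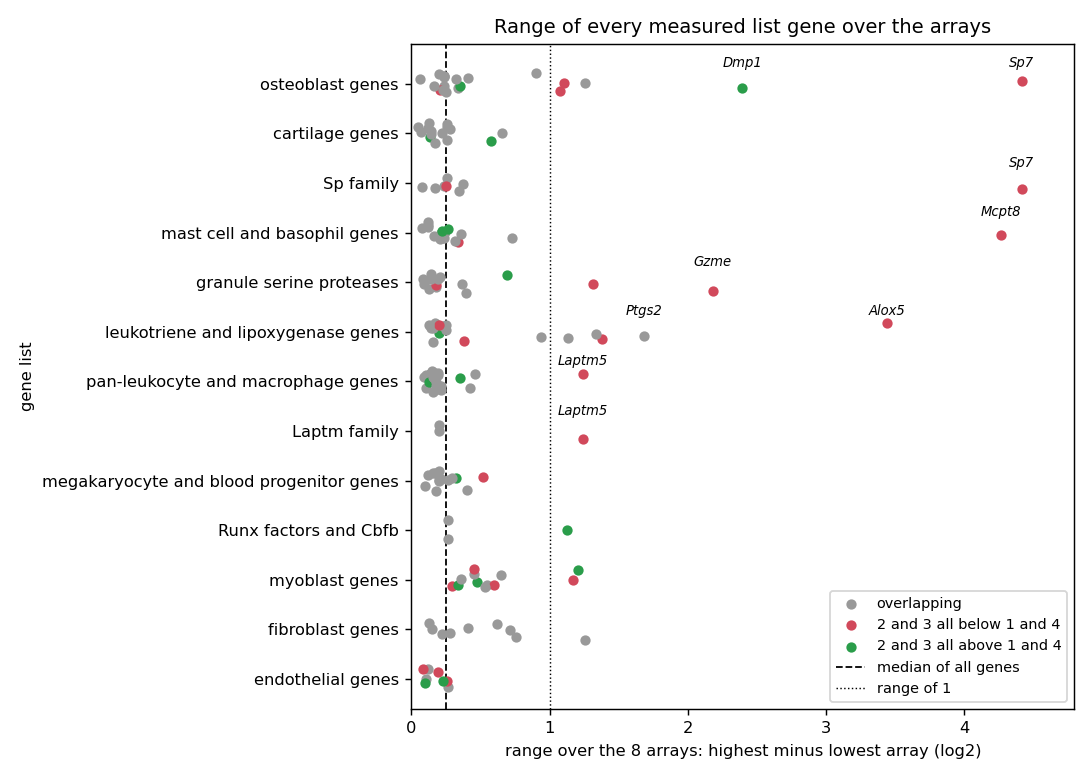
Range over the 8 arrays (highest minus lowest, log2) of every measured gene in 13 lists, with a random vertical offset within a list (red for numbers 2 and 3 all below 1 and 4, green for all above, grey for overlapping). Dashed and dotted lines mark the median of all genes, 0.25, and a range of 1; Sp7, Mcpt8, Alox5 and Laptm5 are the widest in their bone, mast cell, leukotriene and leukocyte lists.

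Genes with the most similar profiles were sought by the root mean square difference between profiles, each centred on its mean over the 8 arrays, among 18548 genes with ordinary names. Alox5 and Mcpt8 were close to each other at 0.22. Both had Igfbp2, an insulin-like growth factor binding protein, as the nearest gene, at 0.17 from Alox5 and 0.22 from Mcpt8, followed by R3hdml and Pdgfd, a platelet-derived growth factor. Igfbp2 read 9.38, 7.22, 5.53 and 9.26 on WT arrays and 8.75, 6.94, 6.58 and 9.12 on Runx1f/f arrays, with WT 3 lowest, as in Mcpt8, Alox5 and Sp7.

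Sp7 had its nearest genes farther off: Pdk4, a kinase that inhibits pyruvate dehydrogenase, at 0.49, Cthrc1 at 0.55, Mcpt8 at 0.57 and Dynap at 0.57. Pdk4 read 10.09, 7.42, 7.12 and 9.76 on WT arrays and 9.10, 8.09, 8.25 and 8.94 on Runx1f/f arrays, with WT arrays at both ends, as in Sp7. Laptm5 was nearest to the vascular growth factor Vegfa at 0.09, Ltc4s at 0.10, Lpcat2 at 0.11 and Mbnl3 at 0.11. Vegfa read 7.90, 7.39, 7.17 and 8.21 on WT arrays and 7.99, 7.34, 7.14 and 8.20 on Runx1f/f arrays. Lpcat2, an acyltransferase that makes platelet-activating factor, read from 3.96 to 5.08. This measure favours genes of equal spread, and the array order that these genes share with the 4 follows from how they were picked. With each profile divided by its own SD, Sp7, Mcpt8 and Alox5 kept 1 of their 4 nearest genes each (Pdk4, Alox5 and Igfbp2) and Laptm5 kept 0.

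**Figure D5:**
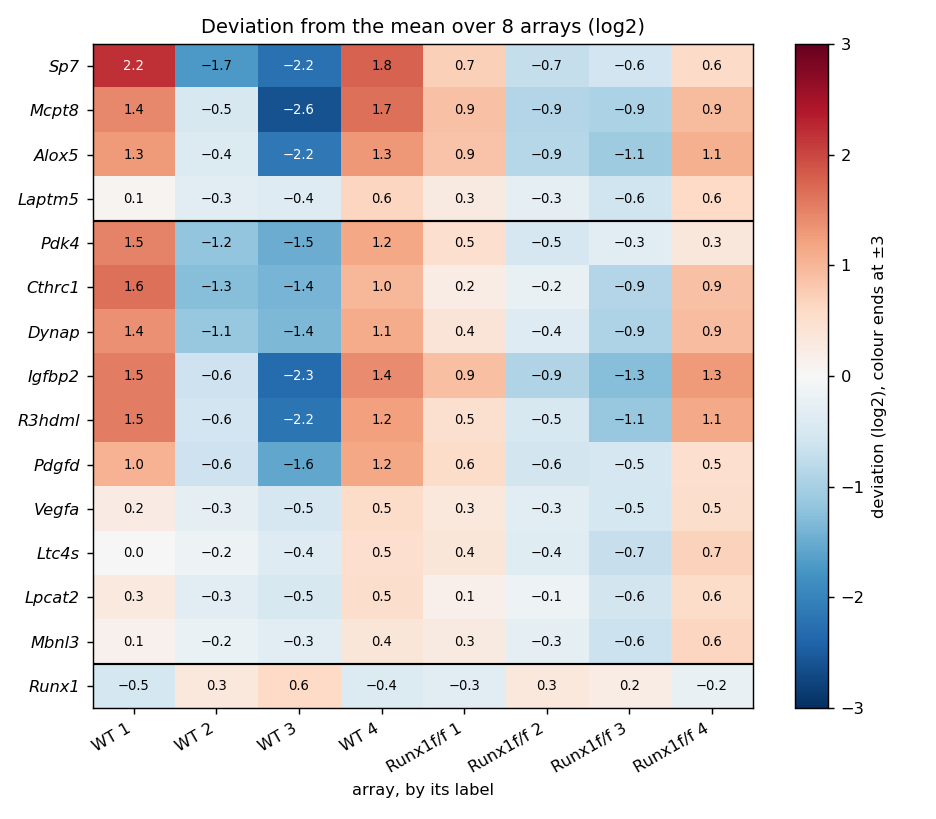
Deviation of each reading from the gene's mean over the 8 arrays (log2; red higher, blue lower, colour ends at 3 in either direction) for the 4 genes, the 10 other genes nearest to them and Runx1. Columns 2 and 3 of each label are below the mean in every gene but Runx1, where they are above it, and WT 3 is the lowest array in Sp7, Mcpt8, Alox5, Pdk4, Cthrc1, Dynap, Igfbp2, R3hdml and Pdgfd. The 10 other genes were picked for profiles like those of the 4, so the shared order follows from that choice.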

How the data were processed

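RNA of cultured mouse primary myoblasts had been hybridized to Affymetrix MoGene 1.0 ST arrays, with 200 ng of total RNA labelled per array per the labels. The authors deposited log2 intensities for each probe set on each array. Per the submitters' processing notes they used Partek and RMA, with no version listed. RMA corrects background, quantile-normalizes arrays together and summarizes probes, which narrows differences between arrays that affect most genes. Columns were assigned by the accession in their headers. Of 35399 rows, 21789 had 1 gene symbol in the platform annotation, 1621 had several and 11989 were not named there; RefSeq (GRCm38.p6) held the gene identifier of 21698 of the first and changed 0 symbols. The row with the highest mean represented a gene, and no dim rows were left out. The labels' genotypes were tested in limma 3.58.1 under R 4.3.3 (genotype only, two-sided, Benjamini-Hochberg over 19938 genes), after tests on simulated data. Precision is limited by having 4 arrays a label, whose readings are not independent, and the spread between these samples may be technical. The equal label means fix the p-values of the main limma fit, the smallest of which was 0.99889, so they do not measure that spread. Alternatives were blocks by number and run, other scalings, filters and summaries, and leaving out each array.

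The 4 genes, the 13 gene lists and the tests were chosen with earlier results of these data known. Named were the 4 genes, the 4 most similar to each, the 4 widest-ranging of each list, 2 neighbours on each side and Runx1; other genes named were added after their values were seen. Gene order came from RefSeq. Deviations from label means of same-numbered arrays correlated by 0.39, 0.46, 0.60 and 0.57 for numbers 1 to 4; the labels state no pairing, and the equal means make these values dependent.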

Additional observations from a re-analysis of the deposited data

How the results depend on the processing

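The counts of 0 genes higher and 0 lower in Runx1f/f arrays held under every alternative run: both blocks, centring, repeated quantile normalization, the filter on dim genes, all probe sets, means over probe sets, the trended robust model, an adjusted p under 0.1 and each of 8 arrays left out. Settings that keep all columns and their scaling keep the equal means, so those repeats are no test of stability. A replicate block, which treats equal numbers as pairs, gave 0 and 0, and the pairing changed no call. Leaving out an array put 0 to 27 genes at p under 0.05 before adjustment. The Runx1f/f minus WT difference then ran from -0.74 to 0.73 for Sp7, -0.87 to 0.55 for Mcpt8, -0.72 to 0.43 for Alox5 and -0.20 to 0.21 for Laptm5, set by the array left out. Ranges with 1 array left out ran from 3.90 to 4.42 in Sp7, 2.59 to 4.27 in Mcpt8, 2.36 to 3.45 in Alox5 and 1.03 to 1.24 in Laptm5, with the low values of Mcpt8 and Alox5 from leaving out WT 3. The gap between the sets chose these genes, and leaving out an array can only keep or widen it, so it is no test of stability. Over all genes, 2091 had numbers 2 and 3 below and 1968 above; after centring these were 2827 and 1543. Signal over background was not analysed here.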

Other observations

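Lists of other cell types that a muscle culture can hold were read on the same arrays. Of 15 measured cartilage genes, 0 had the arrays numbered 2 and 3 below the others and 2 had them above. Over all genes the shares were 10.5% below and 9.87% above, for this list and those that follow. The chondrocyte factor Sox9 read 6.49, 6.91, 7.14 and 7.07 on WT arrays and 7.04, 6.76, 6.81 and 6.99 on Runx1f/f arrays, with overlap. Sox6, another factor of that lineage, was above by 0.29, from 5.51 to 5.65 on numbers 2 and 3 and from 5.08 to 5.22 on numbers 1 and 4. Of 9 fibroblast genes, 0 separated the sets. Of 8 endothelial genes, 3 were below and 2 above, or 1 above after centring or repeated quantile normalization, with a widest range of 0.26, in Egfl7. All 8 read between 3.27 and 4.07 on every array, the level of list genes that stayed low. Pecam1, the endothelial adhesion molecule, was below by 0.12.

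The cells read as myoblasts: the 12 measured myoblast genes ranged from 6.83 to 11.94, and 4 were below and 3 above, against 10.5% and 9.87% of all genes. Myf5, a myogenic determination factor, read 8.51, 7.66, 7.54 and 8.71 on WT arrays and 8.67, 7.54, 7.90 and 8.31 on Runx1f/f arrays, lower on numbers 2 and 3 by a gap of 0.42. Myog, the differentiation factor, read 11.05, 11.70, 11.76 and 10.84 and 10.74, 11.94, 11.48 and 11.20, higher on numbers 2 and 3 by 0.28. Myf5 thus shared the array order of Sp7, Mcpt8, Alox5 and Laptm5 and Myog had the opposite order. Their part in the spread of those 4 genes was not tested.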
